A study of Mus musculus with 6 samples.

Results

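The genes described here are the claudins and the other proteins of the tight junction, the most apical junction between epithelial or endothelial cells. They were chosen by symbol among the protein-coding genes of GENCODE M21, and the choice used no measured value: every claudin with a plain number, the zonula occludens scaffolds, occludin and the 3 Marveld genes, cingulin and paracingulin, the junctional adhesion molecules, the angulins, and the polarity proteins Pard3, Pard6a, Pard6b, Pard6g, Patj and Crb3. The rule finds 44 genes, 23 of them claudins, among 54356 genes in the tables. Polyadenylated RNA was sequenced from epididymal white adipose tissue, the visceral fat pad beside the epididymis, of 6 wild type male mice, 20 weeks old and of the C57BL/6N strain. Mice 7, 12 and 16 carry the label cold (n = 3) and mice 5, 6 and 10 the label ctrl (n = 3). One treatment text, given for all 6 samples, describes 4 °C for 24 h with 1 mouse per cage, beside a general housing temperature of 22 to 24 °C, so the label is all that separates the groups. Whole frozen pads were homogenised, one library per mouse, so each value sums over every cell type in the pad, and fewer cells of a type cannot be told apart from less RNA per cell.

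Claudins are small proteins that cross the membrane several times and bind each other between neighbouring cells. Some claudins seal the space between cells, others form pores for ions and water, and the set a cell makes fixes how leaky its layer is. Occludin and the angulins join them, with the angulins and tricellulin at points where several cells meet, and the zonula occludens proteins tie the whole strand to actin. Fat cells themselves form no epithelial sheet. Within a fat pad, tight junctions are known from the endothelium of blood vessels and from the mesothelium that covers the pad, and they are also a feature of the epithelium of the nearby male reproductive ducts.

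Total estimated counts per library were 22903050 to 28608052 in the cold group and 19735167 to 24176464 in the ctrl group. Lists of marker genes described the libraries by CPM (counts scaled to library size, with TMM factors) summed over the list. Of 19 tested epithelial markers 15 had all cold libraries above all ctrl libraries, as did all 18 motile cilium markers, against 12.7% of all 17852 genes tested. Markers that passed the low-count filter through the cold libraries alone were not counted, and these shares may carry that selection. The epithelial sum was 275, 495 and 454 CPM in cold 7, cold 12 and cold 16, against 121, 59.8 and 85.5 CPM in ctrl 5, ctrl 6 and ctrl 10. In the motile cilium list it was 93.0, 265 and 219 CPM in the same cold libraries, against 44.1, 12.0 and 10.8 CPM in the ctrl libraries. Individual libraries also stood apart: the epididymal duct sum was 153 CPM in cold 7, against 15.2 to 16.2 CPM in the other cold libraries and 2.19 to 5.60 CPM in the ctrl group, and the defining epididymal genes Lcn5, Lcn8 and Gpx5 had at most 2 counts in any of the 6. Seminal vesicle genes summed to 0.263 to 1.29 CPM in the cold group, against 189 CPM in ctrl 10 and 0.0447 to 0.0826 CPM in the other ctrl libraries. Mesothelial markers summed to 347 CPM in cold 7 and 143 to 144 CPM in the other cold libraries, against 347 and 379 CPM in ctrl 5 and ctrl 10 and 150 CPM in ctrl 6. Endothelial markers summed to 1973 to 2216 CPM in the cold group, against 2310 to 2519 CPM in the ctrl group. None of the 14 was called, beside 0.566% of all genes tested called lower. Of the 14, 13 had a negative log2 fold change of cold over ctrl. All cold libraries lay below all ctrl libraries in 3 of them, against 11% of all genes tested.

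**Figure D1:**
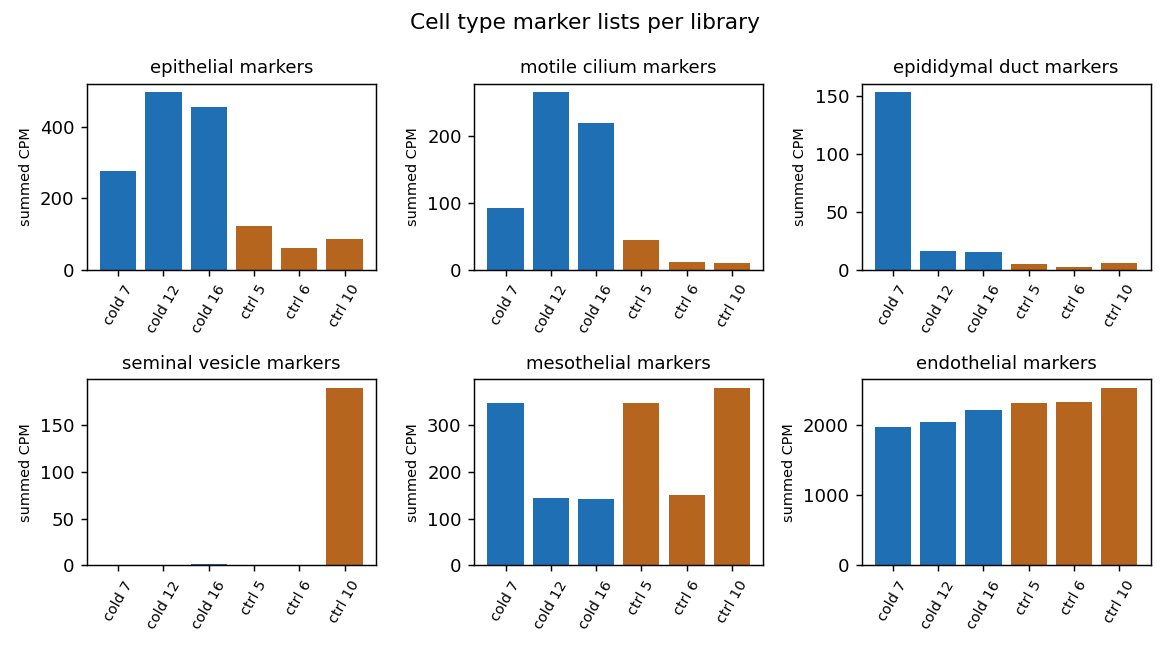
Summed CPM (y axis) of 6 lists of cell type markers in each library (x axis), one bar per library, cold libraries on the left in blue and ctrl libraries on the right in brown. Epithelial and motile cilium sums are higher in every cold library than in every ctrl library. In both lists cold 7 is the lowest cold library and ctrl 5 the highest ctrl library. The epididymal duct sum, in which Lcn5, Lcn8 and Gpx5 have almost no counts, stands out in cold 7, and the seminal vesicle sum in ctrl 10.

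The check of the label by its 2 marker genes found Cldn5, the endothelial claudin, abundant in both groups and occludin low, at 1.72 ± 0.316 TPM in the cold and 0.267 ± 0.143 TPM in the ctrl group (SD, n = 3 each). Claudin 5, Cldn5 (chromosome 16, 18776847 to 18778262, GRCm38), had the highest level per transcript length of the 44 genes, with 144 ± 20.7 TPM in the cold group and 155 ± 2.64 TPM in the ctrl group (SD, n = 3 each; TPM is the deposited transcript abundance, which allows for length, summed per gene). Next came F11r, which encodes the junctional adhesion molecule JAM-A, at 64.1 ± 2.94 TPM in the cold and 60.6 ± 3.05 TPM in the ctrl group. Marveld1, at 49.7 ± 3.17 and 51.4 ± 5.64 TPM in the cold and ctrl groups, and the intestinal cation channel claudin Cldn15, at 46.9 ± 6.91 and 51.7 ± 7.66 TPM, followed, and these neighbours differ by less than their spread (SD, n = 3 each). Tjp1 and Jam2 held ranks 5 and 6 in both groups. A mean of at least 10 TPM was reached by 18 of the 44 genes in the cold group and by 14 in the ctrl group. The order among the first 6 was the same in both groups except that Marveld1 and Cldn15 changed places, whereas Cldn2 held rank 9 in the cold group and rank 22 in the ctrl group. Cldn22, at 22.9 ± 4.77 and 23.2 ± 6.61 TPM in the cold and ctrl groups (SD, n = 3 each), is uncertain: all 995 of its exon bases also lie in exons of Wwc2 on the opposite strand, which averaged 104 CPM. Its log2 fold change of cold over ctrl was 0.02 (SE 0.24).

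**Figure D2:**
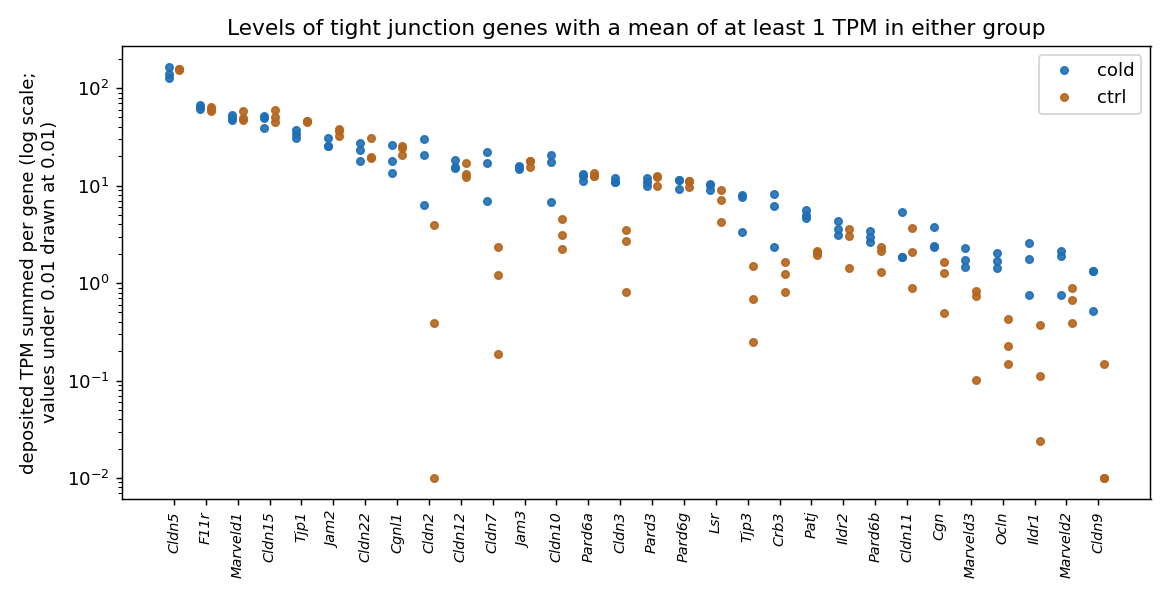
Deposited TPM summed per gene (y axis, log scale) in each of 6 libraries for the tight junction genes shown, which have a mean of at least 1 TPM in either group (x axis, ordered by the cold mean); blue points are cold libraries and brown points ctrl libraries, and values under 0.01 are drawn at 0.01. The points of both groups overlap for Cldn5 (144 TPM in the cold and 155 TPM in the ctrl group), F11r, Marveld1 and Cldn15. They lie apart with the cold points lower for Tjp1 and Jam2, and with the cold points higher for Cldn2, Cldn7, Cldn3, Tjp3 and Ocln.

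Cold-labelled pads had more RNA of occludin, 3 claudins and the polarity genes Patj and Crb3 and less of Tjp1, while Cldn5, F11r, Marveld1 and Cldn15, the 4 most abundant members, had overlapping groups. Of the 44 genes, 33 passed the low-count filter and were tested with edgeR's quasi-likelihood test. Of these 33, 6 rose (Ocln, Cldn4, Patj, Cldn9, Cldn3 and Crb3) and 1 fell (Tjp1) at an adjusted p under 0.05, adjusted by the Benjamini-Hochberg method over all genes. Of all genes tested, 2.32% rose and 0.566% fell. The median log2 fold change over the 33 was 0.58, beside -0.01 over all genes tested. All cold libraries lay above all ctrl libraries in 16 of the 33 and below them in 3, against 12.7% of all genes tested above and 11% (1971 genes) below. Of the 33, 8 (24.2%) passed the low-count filter through the cold libraries and would not have on the ctrl libraries alone, against 6.08% of all genes tested: Ocln, Cldn1, Cldn2, Cldn4, Cldn7, Cldn9, Ildr1 and Marveld3. The counts and the median over the 33 carry this selection. The calls rest on a few libraries: by edgeR no member passed without cold 12, cold 16, ctrl 6 or ctrl 10, with 15, 16, 18 and 18 members then at an unadjusted p under 0.05 (19 with all libraries). Among all genes the same cut held 2546 of 18232, 2746 of 18379, 3071 of 18644 and 2835 of 18650, and 17.6% with all libraries. Of all genes, 0, 2 (0.0109%), 0 and 0 were called higher in these fits. Without cold 7 the calls were 10 higher (with Cldn6, which then entered the test) and 0 lower, beside 5.03% of all genes higher. Without ctrl 5 they were 7 higher and 0 lower, beside 3.5% of all genes higher. Cold 7 and ctrl 5 lie nearest the other group in many members, so leaving out either widens the gap there by construction.

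**Figure D3:**
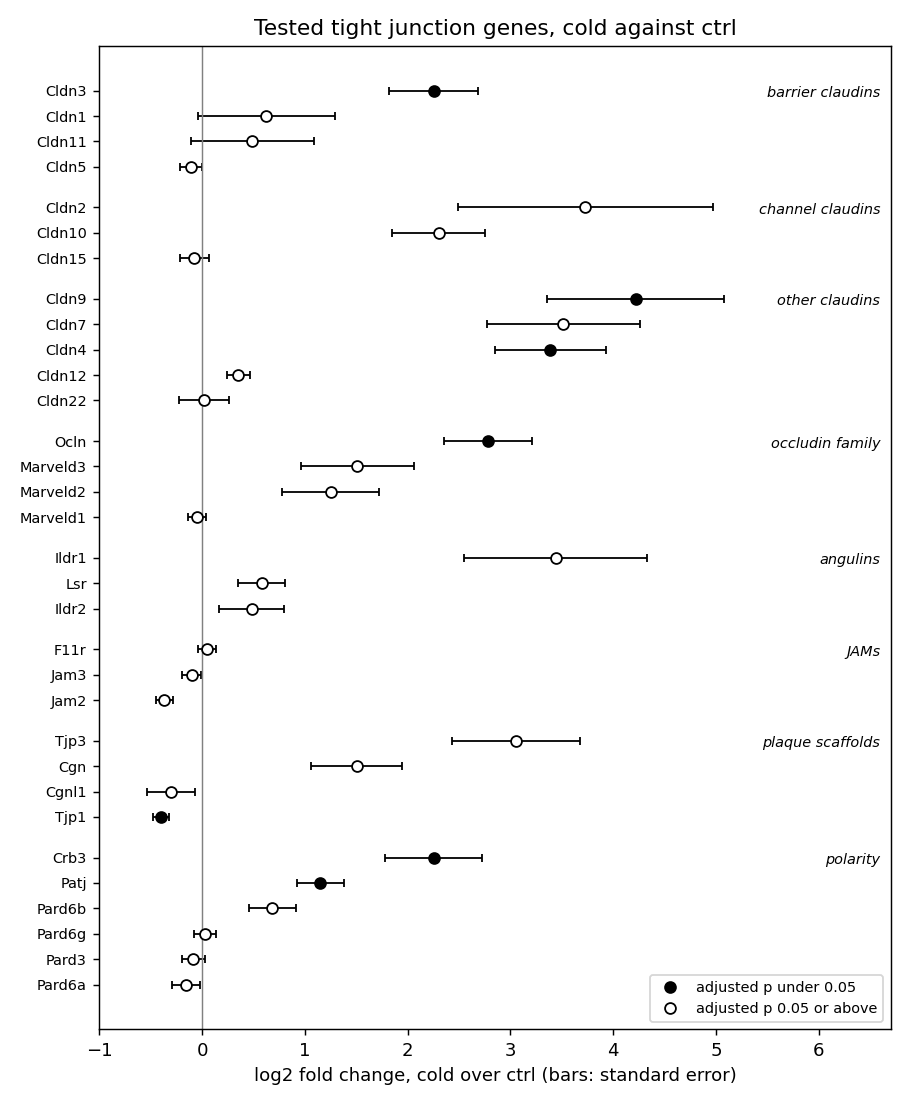
Log2 fold change of cold over ctrl (x axis) with its standard error for 32 of the 33 tested genes, grouped by role from top to bottom; filled points passed an adjusted p of 0.05. The filled points are Cldn3, Cldn9, Cldn4, Ocln, Crb3 and Patj to the right of 0 and Tjp1 to the left, at -0.40.

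Upstream DNA is shown for the called genes with an entry in the RefSeq table and for Cldn5, so that letters and direction of change can be seen together. Each stretch runs up to 250 bases before a start site (RefSeq, GRCm38.p6), on the gene's strand, and is cut where an annotated exon begins. Capitals mark CAGGTG, the E-box bound by repressors of epithelial genes such as SNAI and ZEB factors, or AACCNGTT, the Grainyhead type motif, each searched on both strands.
Ocln, rose, chr13:100552719-100552968, minus strand: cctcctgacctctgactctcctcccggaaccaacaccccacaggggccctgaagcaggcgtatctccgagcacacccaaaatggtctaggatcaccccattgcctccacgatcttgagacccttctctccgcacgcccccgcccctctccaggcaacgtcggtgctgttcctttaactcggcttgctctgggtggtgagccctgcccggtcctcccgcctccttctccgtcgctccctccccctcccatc
Cldn3, rose, chr5:134985964-134986213, plus strand: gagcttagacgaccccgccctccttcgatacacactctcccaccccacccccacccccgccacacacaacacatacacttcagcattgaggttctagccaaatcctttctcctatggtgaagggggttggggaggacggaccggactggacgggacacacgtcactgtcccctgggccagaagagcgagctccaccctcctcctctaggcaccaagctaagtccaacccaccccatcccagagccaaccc
Cldn4, rose, chr5:134946935-134947184, minus strand: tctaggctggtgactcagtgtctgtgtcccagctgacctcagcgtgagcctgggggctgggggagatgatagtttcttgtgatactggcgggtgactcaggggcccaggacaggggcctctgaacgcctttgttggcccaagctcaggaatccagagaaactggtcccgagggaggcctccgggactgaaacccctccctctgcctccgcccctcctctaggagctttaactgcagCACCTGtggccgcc
Crb3, rose, chr17:57061951-57062140, plus strand: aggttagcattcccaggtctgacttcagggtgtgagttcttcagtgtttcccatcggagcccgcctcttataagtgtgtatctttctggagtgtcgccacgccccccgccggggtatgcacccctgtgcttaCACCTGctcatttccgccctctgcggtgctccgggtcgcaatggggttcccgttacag
Patj, rose, chr4:98395576-98395784, plus strand: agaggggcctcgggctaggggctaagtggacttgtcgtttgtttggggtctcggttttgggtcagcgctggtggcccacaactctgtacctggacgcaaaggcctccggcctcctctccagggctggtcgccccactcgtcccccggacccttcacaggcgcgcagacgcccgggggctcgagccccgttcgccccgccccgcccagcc
Tjp1, fell, chr7:65371245-65371494, minus strand: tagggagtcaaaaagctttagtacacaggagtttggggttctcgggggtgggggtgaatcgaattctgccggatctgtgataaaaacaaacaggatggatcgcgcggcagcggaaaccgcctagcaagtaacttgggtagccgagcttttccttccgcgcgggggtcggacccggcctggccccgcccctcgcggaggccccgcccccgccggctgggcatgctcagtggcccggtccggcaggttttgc
Cldn5, not called, chr16:18776597-18776846, plus strand: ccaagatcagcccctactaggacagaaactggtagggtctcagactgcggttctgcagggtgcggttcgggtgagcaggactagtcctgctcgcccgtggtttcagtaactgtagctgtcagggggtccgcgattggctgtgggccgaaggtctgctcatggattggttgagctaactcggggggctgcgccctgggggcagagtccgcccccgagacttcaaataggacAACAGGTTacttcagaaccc
In the stretches shown, Cldn4 and Crb3 hold 1 CAGGTG each and Cldn5 holds 1 AACCNGTT, while those of Ocln, Cldn3, Patj and Tjp1 hold neither. The uncut windows of 250 bases hold more: CAGGTG occurs 2 times in a second window of Ocln (chr13:100552499-100552748), 1 time in the uncut Patj window and 3 times in the uncut Crb3 window. Over the 51 uncut windows that the table gives for 35 of the members, 16 (31.4%) hold CAGGTG, against 17.2% of all 32851 windows, and 2 (3.92%) hold AACCNGTT, against 1.79%. Several members have more than 1 window, and these shares are descriptions.

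Occludin, Ocln (chromosome 13, 100496507 to 100552718), the first transmembrane protein found at tight junctions, had the smallest adjusted p of the members. Its level was 2.41, 3.89 and 3.28 CPM in cold 7, cold 12 and cold 16, against 0.785, 0.313 and 0.257 CPM in ctrl 5, ctrl 6 and ctrl 10. Cold 7 was the lowest cold library and ctrl 5 the highest ctrl library, and the groups did not overlap. The log2 fold change was 2.78 (SE 0.43, adjusted p = 0.0282 by edgeR). Left-out libraries moved it between 2.52 and 3.47 (without ctrl 5), with adjusted p between 0.0105 and 0.132. Tricellulin, Marveld2, which seals the corners where several cells meet, had 1.36, 3.70 and 4.47 CPM in cold 7, cold 12 and cold 16, against 1.78, 1.39 and 0.821 CPM in ctrl 5, ctrl 6 and ctrl 10. Here cold 7 lay below ctrl 5, and the value of 1.25 (SE 0.47) did not pass (adjusted p = 0.215). It passed without cold 7 (adjusted p = 0.0300), but not with no low-count filter (adjusted p = 0.228) or by DESeq2 (adjusted p = 0.146). Cold 7 was its lowest cold library, so leaving that library out widens the gap by construction. Over all left-out libraries the adjusted p of Marveld2 reached 0.470 by edgeR. Marveld3, another occludin relative, stood at 1.51 (SE 0.55, adjusted p = 0.195), with no overlap between groups. Marveld1, a MARVEL domain protein of many cell types, had 110, 101 and 98.8 CPM in cold 7, cold 12 and cold 16, against 118, 106 and 96.4 CPM in ctrl 5, ctrl 6 and ctrl 10. The groups overlapped (-0.05, SE 0.09, adjusted p = 0.841).

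Among barrier-forming claudins Cldn3 (chromosome 5, 134986214 to 134987472), a sealing claudin of many epithelia, rose to 8.84, 8.85 and 9.71 CPM in cold 7, cold 12 and cold 16, against 2.89, 0.670 and 2.16 CPM in ctrl 5, ctrl 6 and ctrl 10. The cold libraries lay close together and all above the ctrl libraries, which spread widely. Its log2 fold change was 2.25 (SE 0.43, adjusted p = 0.0456 by edgeR), but it missed the threshold with no low-count filter (adjusted p = 0.103) and without cold 7 (adjusted p = 0.0592). The endothelial Cldn5 had 136, 162 and 122 CPM in cold 7, cold 12 and cold 16, against 146, 156 and 149 CPM in ctrl 5, ctrl 6 and ctrl 10. These groups overlapped, with the highest and the lowest value both in the cold group (log2 fold change -0.11, SE 0.11, adjusted p = 0.683). Cldn1, the barrier claudin of skin, stood at 0.63 (SE 0.67) and Cldn11, known from myelin and Sertoli cells, at 0.49 (SE 0.60), neither past the threshold. Cldn11 was highest in cold 7, with 6.04 CPM, against 2.12 and 2.27 CPM in the other cold libraries and 2.31, 1.03 and 4.11 CPM in ctrl 5, ctrl 6 and ctrl 10. It turned to -0.17 without cold 7.

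Of the claudins without a clear barrier or channel role, 2 rose. Cldn4 (chromosome 5, 134945119 to 134946934), an epithelial claudin encoded beside Cldn3, had 16, 22 and 14 counts in cold 7, cold 12 and cold 16, against 2, 1 and 1 in ctrl 5, ctrl 6 and ctrl 10. It was one of the 2 genes that rose in which ctrl 5 and cold 7 were not the libraries nearest each other. Its fitted log2 fold change was 3.39 (SE 0.54, adjusted p = 0.0296), and the summed counts gave a ratio of 11.3 (exact 95% interval 4.17 to 43.2, for counting error only). Cldn9 (chromosome 17, 23682584 to 23684026), known from the inner ear, had 10, 29 and 34 counts in the same cold libraries, against 3, 0 and 0 in the ctrl libraries, a ratio of 21.2 (interval 6.98 to 105). Its fitted log2 fold change was 4.22 (SE 0.86, adjusted p = 0.0430), and 7.47 without ctrl 5, which held all its ctrl counts. An offset for transcript length ended the call (adjusted p = 0.0506). Its neighbour Cldn6, an embryonic claudin with too few reads for the test, had 7, 15 and 17 counts in the cold libraries, against 1, 1 and 0 in the ctrl libraries. Cldn7, a claudin of kidney and gut epithelium, had 5.69, 13.8 and 12.7 CPM in cold 7, cold 12 and cold 16, against 1.90, 0.670 and 0.154 CPM in ctrl 5, ctrl 6 and ctrl 10. The groups did not overlap, yet the value of 3.51 (SE 0.74) had an adjusted p of 0.0701. It passed without cold 7 (adjusted p = 0.0487), without ctrl 5 (4.65, adjusted p = 0.0300) and by DESeq2 (adjusted p = 0.00366). Cold 7 was its lowest cold and ctrl 5 its highest ctrl library, so leaving out either widens the gap by construction. Over all left-out libraries the adjusted p of Cldn7 reached 0.205 by edgeR. The edgeR fit with no low-count filter moved Cldn7 further away (adjusted p = 0.228). Widely made Cldn12 had the smallest positive value of the claudins whose groups did not overlap, at 0.35 (SE 0.11, adjusted p = 0.128).

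None of the 3 tested channel-forming claudins passed. Cldn2, the cation and water channel claudin of leaky epithelia such as the renal proximal tubule, had 12.3, 56.1 and 42.7 CPM in cold 7, cold 12 and cold 16, against 7.27, 0.760 and 0 CPM in ctrl 5, ctrl 6 and ctrl 10. Cold 7 lay nearer to ctrl 5 than to the other cold libraries, and the log2 fold change of 3.73 had an SE of 1.24 (adjusted p = 0.213). Without ctrl 5 it was 6.51 (adjusted p = 0.0681), and with cold 7 and ctrl 5 both left out 6.92 (adjusted p = 0.00807). That pair holds the lowest cold and the highest ctrl value of Cldn2, so leaving it out widens the gap by construction. The adjusted p was 0.434 by edgeR with no low-count filter and 0.295 by DESeq2. Cldn10, whose first exons are alternative and give proteins of different charge selectivity, had 6.96, 18.8 and 17.3 CPM in the cold libraries, against 3.80, 1.79 and 3.13 CPM in the ctrl libraries (2.30, SE 0.45, adjusted p = 0.0550). It passed without cold 7 (adjusted p = 0.00498) and by DESeq2 (adjusted p = 5.01e-07), while edgeR with no low-count filter gave an adjusted p of 0.182. Cold 7 was its lowest cold library, so leaving that library out widens the gap by construction. Over all left-out libraries the adjusted p of Cldn10 reached 0.177 by edgeR. Reads went to both starts: the 2 transcripts from the upstream first exon summed to 2.95, 12.1 and 10.2 TPM in cold 7, cold 12 and cold 16, against 3.24, 1.85 and 1.56 TPM in ctrl 5, ctrl 6 and ctrl 10, with cold 7 below ctrl 5. The one from the downstream first exon had 3.80, 8.30 and 7.18 TPM in the same cold libraries, against 1.34, 0.398 and 1.59 TPM in the ctrl libraries, without overlap. Cldn15 had overlapping groups and a value of -0.07 (SE 0.14, adjusted p = 0.848).

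Of the 23 claudins, 11 were not tested. No read was assigned to Cldn13, Cldn16, Cldn17 or Cldn18 in any of the 6 libraries, which allows up to 0.0209 CPM for each over all libraries (3 counts). Among the rest, Cldn8, a claudin of distal kidney tubules, had 18, 2 and 0 counts in cold 7, cold 12 and cold 16 and 0 in every ctrl library. Cldn14 had 6 counts in cold 7 and 0 elsewhere. In both genes the reads were thus mostly or wholly those of cold 7, the library with the high epididymal duct sum of 153 CPM. Of the 14 genes in that list, 11 had too few reads for the test, Lcn5, Lcn8 and Gpx5 among them. Whether these reads and that sum are linked was not tested. Cldn19, Cldn20, Cldn23 and Cldn24 had 0 to 20 counts per library, with overlapping groups.

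Of the cytoplasmic scaffolds Tjp1 (chromosome 7, 65296165 to 65527781), which encodes ZO-1 and is made by both endothelium and epithelium, was the one member that fell. It had 79.9, 89.5 and 80.4 CPM in cold 7, cold 12 and cold 16, against 108, 104 and 118 CPM in ctrl 5, ctrl 6 and ctrl 10. Every cold library lay below every ctrl library, and the spread within each group was small. Its log2 fold change was -0.40 (SE 0.08, adjusted p = 0.0421 by edgeR), and left-out libraries gave -0.44 to -0.34 with adjusted p from 0.0538 to 0.144. The call also ended when transcript length entered as an offset (adjusted p = 0.0618). The share of its TPM in the full-length transcript Tjp1-202 was 39.0% in the cold and 40.1% in the ctrl group. The short processed transcript Tjp1-203, of 699 bases, held 54.2% in the cold and 54.7% in the ctrl group, on 112 to 198 reads per cold and 151 to 201 per ctrl library, so the TPM of Tjp1 rests largely on few reads. Summed endothelial markers moved with it, at 1973 to 2216 CPM in the cold and 2310 to 2519 CPM in the ctrl group. Those of pericytes and smooth muscle did too, at 1031 to 1188 CPM in the cold and 1272 to 1300 CPM in the ctrl group. Of these 9 markers 1 was called lower, beside 0.566% of all genes tested. The part of both lists in the result was not tested. The endothelial Cldn5 did not separate the groups in this way.

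The epithelial scaffold Tjp3, which encodes ZO-3, had 5.56, 15.9 and 13.3 CPM in cold 7, cold 12 and cold 16, against 2.52, 0.581 and 1.03 CPM in ctrl 5, ctrl 6 and ctrl 10 (3.05, SE 0.63, adjusted p = 0.0638). It passed without cold 7 (adjusted p = 0.0254), without ctrl 5 (3.86, adjusted p = 0.0317) and by DESeq2 (adjusted p = 1.71e-07). These were its lowest cold and highest ctrl libraries, so leaving out either widens the gap by construction. Over all left-out libraries the adjusted p of Tjp3 reached 0.199 by edgeR. With no low-count filter Tjp3 lay further from the threshold (adjusted p = 0.210 by edgeR). Cingulin, Cgn, which binds the ZO proteins and actomyosin, stood at 1.505 (SE 0.44, adjusted p = 0.136), with 8.93, 14.3 and 9.50 CPM in the cold libraries, against 5.49, 1.56 and 4.47 CPM in the ctrl libraries. Paracingulin, Cgnl1, had 111, 75.0 and 66.2 CPM in cold 7, cold 12 and cold 16, against 109, 80.6 and 120 CPM in ctrl 5, ctrl 6 and ctrl 10. Its 3 highest libraries were the 3 with the highest mesothelial sums. Of the 33 tested members, 2 (6.06%), Cgnl1 and Cldn11, had this order, against 7.42% of all genes tested. The log2 fold change of Cgnl1 was -0.30 (SE 0.23, adjusted p = 0.595).

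Junctional adhesion molecules and angulins held no call. Jam2, an adhesion molecule of endothelium, had 63.9, 70.5 and 64.9 CPM in cold 7, cold 12 and cold 16, against 88.5, 78.3 and 90.8 CPM in ctrl 5, ctrl 6 and ctrl 10. Its groups did not overlap and it lay just outside the threshold (-0.37, SE 0.08, adjusted p = 0.0540), which it passed with no low-count filter (adjusted p = 0.0153) and by DESeq2 (adjusted p = 0.00604). An offset for transcript length moved it further away (adjusted p = 0.116 by edgeR). F11r had 83.4, 90.0 and 95.0 CPM in the cold libraries, against 78.9, 90.0 and 91.2 CPM in the ctrl libraries, with overlapping groups (0.05, SE 0.08). Jam3, an adhesion molecule of vessels and germ cells, stood at -0.10 (SE 0.10). Of Jam3's exon bases, 36.2% are shared with an antisense gene. The angulin Ildr1, which recruits tricellulin to cell corners, had 31, 109 and 103 counts in cold 7, cold 12 and cold 16, against 17, 1 and 1 in ctrl 5, ctrl 6 and ctrl 10 (3.44, SE 0.89, adjusted p = 0.1005). Without ctrl 5 it was 5.87 (adjusted p = 0.0201), and it passed by DESeq2 (adjusted p = 0.000953). Ctrl 5 held its highest ctrl count, so leaving that library out widens the gap by construction. Over all left-out libraries the adjusted p of Ildr1 reached 0.263 by edgeR. Leaving the low-count filter off raised its adjusted p to 0.321 by edgeR. Lsr, the lipolysis-stimulated lipoprotein receptor and an angulin, had 14.1, 14.3 and 12.6 CPM in the cold libraries, against 11.7, 5.90 and 9.81 CPM in the ctrl libraries (0.58, SE 0.23, adjusted p = 0.241). An antisense gene shares 43.6% of Lsr's exon bases. Ildr2 had overlapping groups and a value of 0.48 (SE 0.32).

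Polarity proteins place the junction at the apical end of the side wall, and 2 of the 6 rose. Crb3 (chromosome 17, 57059105 to 57065918), the epithelial Crumbs protein of the apical membrane, had 1.40, 4.13 and 3.95 CPM in cold 7, cold 12 and cold 16, against 0.908, 0.447 and 0.616 CPM in ctrl 5, ctrl 6 and ctrl 10. Cold 7 lay closer to the ctrl libraries than to the rest of its group. The log2 fold change was 2.25 (SE 0.47, adjusted p = 0.0479), and the call ended when length entered as an offset (adjusted p = 0.0634) or when ctrl 5 was removed (adjusted p = 0.0588). Patj (chromosome 4, 98395785 to 98719603), the PDZ scaffold that links the Crumbs complex to ZO-3 and claudins, had 8.49, 14.1 and 11.1 CPM in the cold libraries, against 5.33, 3.93 and 5.96 CPM in the ctrl libraries. Here ctrl 10, not ctrl 5, was the highest ctrl library. It rose by 1.15 on the log2 scale (SE 0.23, adjusted p = 0.0411), but the call was lost once ctrl 5 was removed (adjusted p = 0.0704). Pard6b, the PAR6 form of epithelia, stood at 0.68 (SE 0.23, adjusted p = 0.163) without overlap between groups. Its relatives Pard6a and Pard6g stood at -0.15 and 0.03, and the PAR3 scaffold Pard3, made in most cells, at -0.09, all with an SE of 0.11 to 0.14.

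**Figure D4:**
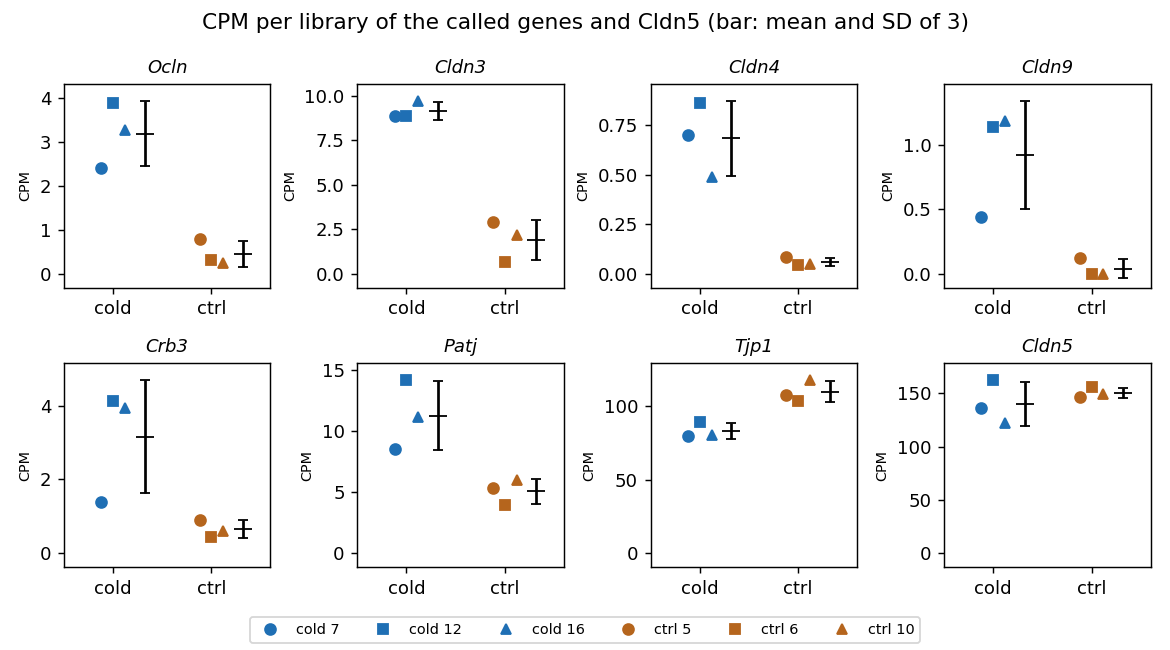
CPM (y axis, from 0) in each library of the 7 called genes and of Cldn5, cold libraries left in blue and ctrl libraries right in brown, with the mean and SD of 3 beside them. Ocln, Cldn3, Cldn4, Cldn9, Crb3 and Patj are higher in every cold library, Tjp1 is lower in every cold library, and the Cldn5 groups overlap.

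The order of the libraries was shared by many members. In 13 of the 33 tested genes (39.4%), and in 4 of the 6 that rose, the top ctrl library was ctrl 5 and the bottom cold library cold 7, an order found in 14.8% of all genes tested. Among the 13, Ocln, Cldn2, Cldn7, Cldn9, Ildr1 and Marveld3 passed the low-count filter through the cold libraries alone, so this share carries that selection. Of the 33, 24.2% passed in this way, against 6.08% of all genes tested. The summed epithelial and motile cilium markers also had ctrl 5 as the top ctrl and cold 7 as the bottom cold library. With cold 7 and ctrl 5 both left out, 13 of the 44 genes, Cldn6 among them, passed upward and 0 downward by edgeR, beside 6.31% of all genes upward. At an unadjusted p under 0.05 were then 21 members, beside 2940 of 18154 genes. This fit drops the libraries that lie nearest the other group in many members, which widens the gap there by construction. Its added calls are therefore no support for a difference. With all libraries, most epithelial markers moved with the junction genes that rose: 8 of 19 tested rose and 0 fell, beside 2.32% and 0.566% of all genes. The median of their log2 fold changes was 2.71. Negative values were found in 3 of the 19, down to -0.59, and 1 had every cold library below every ctrl library. E-cadherin, Cdh1, the adhesion protein beneath the tight junction, had 9.41, 19.3 and 15.4 CPM in cold 7, cold 12 and cold 16, against 1.65, 0.313 and 0.257 CPM in ctrl 5, ctrl 6 and ctrl 10. Cdh1 passed the low-count filter through the cold libraries alone, and how many other epithelial markers did so was not counted. The part of these markers in the values of the junction genes was not tested.

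A list of other junction and polarity genes was described in the same way. Of its 39 genes 37 were tested, and 4 rose and 0 fell by edgeR, beside 2.32% and 0.566% of all genes. At an unadjusted p under 0.05 were 14, beside 17.6% of all genes, and the log2 fold changes had a median of -0.05. All cold libraries lay above all ctrl libraries in 8 of them and below in 8, beside 12.7% and 11% of all genes. Igsf5, which encodes the adhesion molecule JAM4 of kidney and gut, had 1.44, 2.83 and 2.37 CPM in cold 7, cold 12 and cold 16, against 0.206, 0.0894 and 0.0513 CPM in ctrl 5, ctrl 6 and ctrl 10 (4.15, SE 0.50, adjusted p = 0.0226). Igsf5 lay under the minimum of the low-count filter in every ctrl library and was tested through the cold libraries alone. For the rest of the list this selection was not examined. A second annotated gene carries the symbol Igsf5 and was not counted here. Clmp, an adhesion molecule named for adipocytes that sits at epithelial tight junctions, had 93.4, 76.4 and 74.9 CPM in the cold libraries, against 47.7, 53.1 and 55.1 CPM in the ctrl libraries (0.65, SE 0.10, adjusted p = 0.0296). In Clmp cold 7 was the highest cold library, unlike in most members that rose. The epithelial nectin Nectin4 rose by 1.23 (adjusted p = 0.0367) and the kinase Wnk4, which regulates paracellular chloride transport in the kidney, by 1.12 on the log2 scale (adjusted p = 0.0399). By edgeR 0 of the list passed without cold 12, cold 16, ctrl 6 or ctrl 10, fits in which 0, 2, 0 and 0 of all genes were called higher.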

How the data were processed

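RNA-seq libraries, 1 per mouse, came from whole epididymal fat pads of 3 cold and 3 ctrl mice. Per the labels' protocols, polyadenylated RNA was made into strand-specific libraries, and the tools named, per the submitters' processing notes, are Salmon, cutadapt and bcl2fastq, with the build GRCm38. Their versions and the strand setting of Salmon were not given in the sources. The deposited tables hold, per the file headers, estimated counts and TPM for 140658 transcripts in each library. From these, transcripts were joined to GENCODE M21 (139921 matched with version, 521 not matched) and summed to 54356 genes, and 0.124 to 0.394% of counts had no gene. Summed estimated counts were rounded to whole numbers.

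Genes were filtered with filterByExpr (minimum count 10, minimum total 15), scaled by TMM and tested with the edgeR 4.0.16 quasi-likelihood test (R 4.3.3). Benjamini-Hochberg adjustment ran over all 17852 genes tested, with a call at an adjusted p under 0.05. CPM compares libraries, and TPM, which is per length, compares genes. Alternatives were RLE size factors, no filter, an offset for effective transcript length, DESeq2 1.42.0, each library left out in turn, and cold 7 with ctrl 5 left out. The test was tried on simulated counts first. Total counts of 19735167 to 28608052 make 3 counts equal to 0.105 to 0.152 CPM per library, and intervals and floors cover counting error only. The labels give separate mouse numbers, and none of the 6 pairs of libraries within a group agreed within sampling noise.

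The members and lists were chosen with earlier results of these data known. Every tested member is named with its fold change, except 1 that is not reported here and stays in the counts, the called members, Ocln, Cldn5 and the 3 members highest in TPM have per-library values, and other junction genes are named where called. Further members were given per-library values after their values were seen. Protein sequences were not used here.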

Additional observations from a re-analysis of the deposited data

How the results depend on the processing

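With RLE size factors every count of calls stayed within 1.5 times. Without a low-count filter 6 tight junction genes were called higher and 2 lower, with 696 of all genes higher and 228 lower and 1 other junction gene lower. These 6 are not the same set, as Cldn3 was lost and Cldn6 entered (adjusted p = 0.0143 by edgeR). With the transcript length offset 4 tight junction genes were called higher, without Cldn9 and Crb3, and 0 lower. Of all genes 363 were then higher and 58 lower, and 3 other junction genes were higher. By DESeq2 the calls were 12 higher and 2 lower among tight junction genes, 1135 higher and 297 lower among all genes, and 2 lower among other junction genes. The 12 include Cldn6 (adjusted p = 0.0481 by DESeq2). With cold 7 and ctrl 5 both left out they were 13 higher and 0 lower, with 1145 of all genes higher, and Cldn11, Cldn22 and Pard6g turned to -0.20, -0.24 and -0.081. That fit drops the libraries nearest the other group in many members, so its added calls are no support. Leaving out single libraries gave 0 to 10 tight junction genes higher and 0 to 0 lower, 0 to 929 of all genes higher and 0 to 161 lower, and 0 to 5 other junction genes higher. Over these left-out libraries the median log2 fold change of the members ranged from 0.35 to 0.77. Log2 fold changes that changed sign ranged from -0.17 to 1.05 for Cldn11, -0.12 to 0.30 for Cldn22, -0.038 to 0.10 for Pard6g, -0.17 to 0.077 for Cldn15, -0.0089 to 0.091 for F11r, -0.16 to 0.023 for Pard3 and -0.11 to 0.039 for Marveld1. The cause was not tested. No paired analysis was possible because the mouse numbers of the groups do not overlap. Depth limits the genes with few reads, among them Cldn4, Cldn6 and Cldn9.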
